A study of Mus musculus with 24 samples.

Results

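The homeobox genes described here are the probe sets whose platform symbol begins with Hoxa, Hoxb, Hoxc, Hoxd, Cdx, Nkx, Pitx, Pbx, Meis, Barx, Lhx, Dlx, Msx, Irx, Pax or Tlx followed by a number, carries the numbered prefix shared by Six2 and Six4, or is Hlx or Pdx1. They were chosen by name, which gave 107 of the 12488 probe sets on the array, or 87 of 8252 genes among probe sets with 1 symbol. A probe set is a group of short probes for 1 transcript. Of the 107, 104 carried 1 symbol and 3 carried the symbols of a pair of neighbouring Hox genes. The 5 probe sets for Hoxa11os, Dlx1as and Dlx6os2 belong to antisense or non-coding transcripts named after a homeobox neighbour. Total RNA of whole mouse gut tissue was measured on 24 arrays, each of 1 sample, called a library below. The groups were germ-free rectum, conventional rectum, germ-free descending colon, conventional descending colon, germ-free jejunum, conventional jejunum, germ-free corpus and conventional corpus, with 3 libraries in each. Germ-free mice carry no microbes, conventional mice carry a normal microbiota, and no other treatment or allele is labelled. The corpus is the stomach apart from the antrum, and the rectum is the very end of the gut, just past the descending colon. All 4 pieces were taken from every mouse, so regions share animals, but no label says which libraries came from 1 mouse. The strain, sex and age of the mice are not given in the sources used here.

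Homeobox genes encode transcription factors that bind DNA through a homeodomain and give cells their place along the body. The Hox genes lie in clusters, and the order of genes in a cluster follows the order of their domains in the embryo, so that high-numbered genes act towards the tail. Pbx and Meis proteins bind DNA together with Hox proteins. In the gut, Cdx1 and Cdx2 keep the intestinal identity of the epithelium, Barx1 acts in the mesenchyme of the stomach, Hlx and Nkx2-3 act in the gut mesenchyme, and Hoxa13 and Hoxd13 are needed to form the hindgut. A piece of whole gut holds epithelium, connective tissue, muscle, nerve and immune cells together, so fewer cells of a type and less RNA per cell cannot be told apart in these data.

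The values are the deposited signals, a linear measure of brightness with no unit. Signals under 21.2 were raised to that floor before log2 was taken, and a probe set was tested when it passed 51.5 in at least 3 libraries. This kept 62 of the 107 homeobox probe sets, covering 53 genes among those with 1 symbol. Pax2 passed narrowly, with a third-highest signal of 53.1, and Hoxb3 missed narrowly, at 51.5. A difference is a log2 difference of group means ± its standard error (SE) from limma, and it is called at an adjusted p under 0.05 over all probe sets tested. Regional differences average both microbial states, with 6 libraries on each side. Signals listed in threes are those of libraries 1, 2 and 3 of a group.

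Markers that are not homeobox genes (stomach Atp4a, Atp4b and Cblif, jejunal Apoa4, Apoa1 and Fabp2, hindgut Car1, Car4 and Aqp8) went against the labels of 3 libraries. The libraries labelled germ-free corpus 3 and conventional jejunum 3 carried hindgut markers, and the library labelled conventional rectum 1 carried jejunal markers. The other 21 scored highest for the markers of their labelled region and are called libraries that match their labels. Descending colon and rectum shared 1 set of hindgut markers, so the check cannot tell colon from rectum. Of the 21, 4 also carried some markers of another region. In germ-free rectum 1 Atp4a was 1968 and Car1 1514. In germ-free corpus 2 Car1 was 1432.5, against 9.2 to 15.7 in the other 4 corpus libraries that match. In germ-free jejunum 3 Atp4b was 401, against 10.1 or less in the other jejunum libraries. In germ-free descending colon 1 Fabp2 was 4005, against 1182 or less in the other colon libraries, and Aqp8 was lowest there, at 233. These 4 stayed among the 21. Their part in the results was not tested beyond leaving out single libraries and 1 run without germ-free rectum 1 and the 3 libraries. The library labelled germ-free corpus 3 and germ-free descending colon 3 were the closest of all 276 pairs, with an SD of log2 differences of 0.251, and the next closest pair stood at 0.362. All libraries stayed under their labels, and regional differences are given with and without the 3 that oppose them. The signals show the same mismatch: in the library labelled germ-free corpus 3 Cdx1 was 804 and Pitx1 206, while Hoxa13 was 106.

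The 4 regions differed in many homeobox genes, as in a large share of all probe sets. Across regions, 29 of 62 tested homeobox probe sets (46.8%) were called by the moderated F test, against 35.2% of all probe sets. Without the 3 libraries 31 of 60 (51.7%) were called, against 44.8%. Whether these shares differ was not tested. Of the 29 probe sets, 27 were called in both. The heat map of all tested members with 1 symbol shows a block of Hoxa genes and Hoxb13 high in the rectum and descending colon, Cdx1 low in the corpus, and Pitx1, Dlx3, Irx3, Barx1, Hoxc5 and Hoxc8 high in the corpus.

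**Figure D1:**
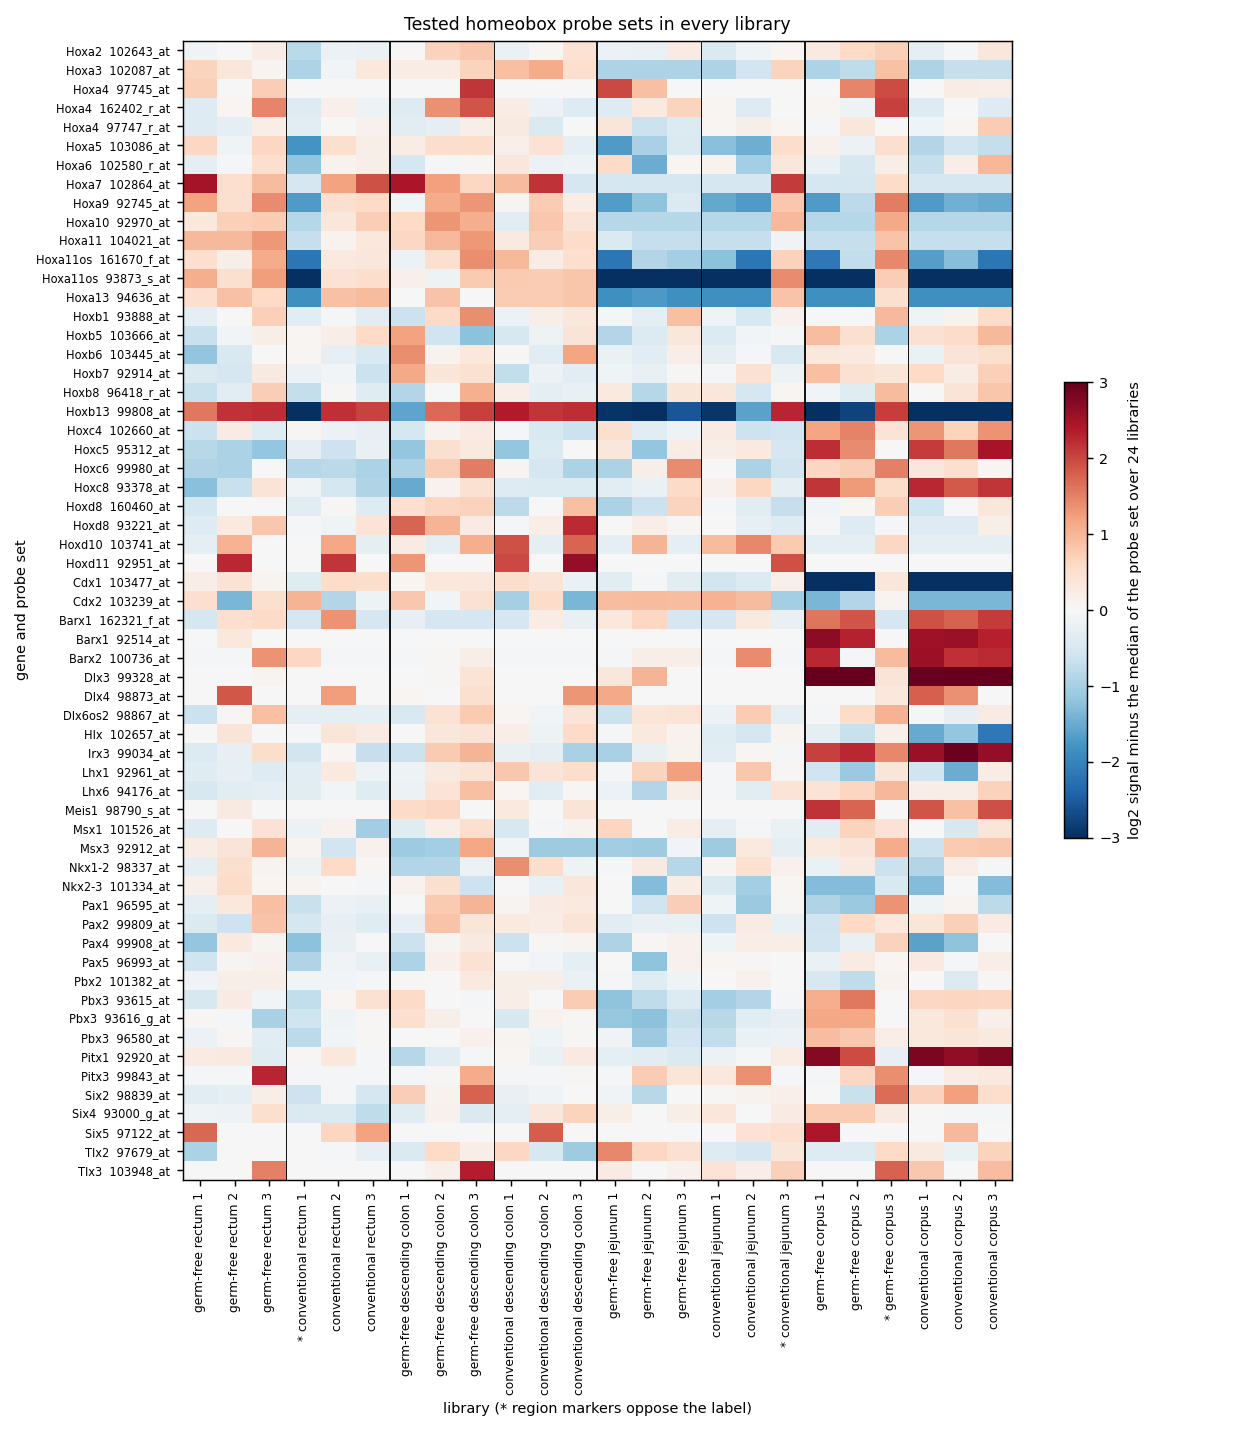
Each row is 1 of the 60 tested homeobox probe sets with 1 symbol and each column 1 of the 24 libraries, with germ-free left of conventional in each region. Colour is the log2 signal minus the median of that probe set over 24 libraries, and it saturates at 3 either way. The libraries marked with a star carry markers of another region, and their columns look unlike their neighbours.

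The Hox genes at the tail end of the Hoxa cluster, with Hoxb13, were high in the hindgut and low in the jejunum and corpus. Hoxa13, which acts in the limb and in the hindgut and genital tract, gave 107, 139.9 and 114 in germ-free rectum, against 2.7, 138 and 146 in conventional rectum, and 75, 137 and 76.6 in germ-free descending colon, against 128, 128 and 136 in conventional descending colon. Further up it gave 6.2, 22.8 and 7.6 in germ-free jejunum, against 6.2, 18.7 and 137 in conventional jejunum, and 8, 10.8 and 106 in germ-free corpus, against 4.6, 5.1 and 7.2 in conventional corpus. Apart from the 3 libraries that oppose their labels, every rectum and colon signal was at least 75, and every jejunum and corpus signal was at most 22.8. Descending colon minus corpus was 1.99 ± 0.50 over all 24 libraries (adjusted p = 0.00777) and 2.37 ± 0.18 without the 3 libraries (adjusted p = 4.49e-09), or at least 5.18-fold in the second, where the corpus lay at the floor. Against the jejunum the colon was higher by 1.91 ± 0.50 over all 24 libraries (adjusted p = 0.0162) and 2.36 ± 0.18 without the 3 libraries (adjusted p = 9.36e-09).

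Hoxb13, a gene of the tail bud, the hindgut and the prostate, read 989, 1500.2 and 1539 in germ-free rectum, against 41.7, 1524 and 1355 in conventional rectum, and 112, 1082 and 1375 in germ-free descending colon, against 1728, 1478 and 1543 in conventional descending colon. Its signals were 43.2, 30.4 and 55.7 in germ-free jejunum, against 43.8, 109 and 1626 in conventional jejunum, and 28.6, 48.7 and 1399 in germ-free corpus, against 33.2, 31 and 35.1 in conventional corpus. Of the libraries with hindgut markers, germ-free descending colon 1 alone was low, at 112, close to the 109 of conventional jejunum 2. The colon exceeded the corpus by 3.86 ± 1.00 over all 24 libraries (adjusted p = 0.00955) and 4.73 ± 0.46 without the 3 libraries (adjusted p = 1.19e-07), and the jejunum by 3.36 ± 1.00 over all 24 libraries (adjusted p = 0.0293) and 4.11 ± 0.46 without the 3 libraries (adjusted p = 1.52e-06).

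Hoxa11, known for its part in limb, kidney and uterus, gave 67.7, 67.9 and 84.8 in germ-free rectum, against 3.4, 37.3 and 42.7 in conventional rectum, and 53.1, 68.2 and 85.2 in germ-free descending colon, against 41.5, 57.9 and 50.9 in conventional descending colon. Above the colon it gave 25.7, 1.7 and 20.3 in germ-free jejunum, against 3.5, 10.1 and 31.9 in conventional jejunum, and 4.4, 5.7 and 62.3 in germ-free corpus, against 11.8, 12.1 and 4.8 in conventional corpus. All 6 colon libraries lay above all 6 jejunum libraries, also with the library labelled conventional jejunum 3 counted. The difference was 1.31 ± 0.26 over all 24 libraries (adjusted p = 0.00403) and 1.40 ± 0.19 without the 3 libraries (adjusted p = 1.83e-05). Against the corpus it was 1.19 ± 0.26 over all 24 libraries (adjusted p = 0.00246) and 1.45 ± 0.19 without the 3 libraries (adjusted p = 8.09e-06).

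Hoxa11os, an RNA from the strand opposite Hoxa11, was high in the hindgut by both of its probe sets. Its probe set of type s_at gave 457, 299 and 508 in germ-free rectum, against 7.8, 287 and 308 in conventional rectum, and 239, 191 and 368 in germ-free descending colon, against 366, 359 and 378 in conventional descending colon. Outside the hindgut it gave 5.7, 7.5 and 11.8 in germ-free jejunum, against 6.7, 6.7 and 567 in conventional jejunum, and 4.3, 12.5 and 354 in germ-free corpus, against 5.8, 6.9 and 10.2 in conventional corpus. Leaving aside the 3 libraries, hindgut signals began at 191 and all others ended at 12.5, under the floor. The colon was higher than the corpus by 3.18 ± 0.79 over all 24 libraries (adjusted p = 0.00703) and 3.86 ± 0.18 without the 3 libraries (adjusted p = 2.77e-12), or at least 14.5-fold in the second. Its probe set of type f_at gave 136, 107 and 207 in germ-free rectum, against 18.5, 116 and 119.9 in conventional rectum, and 84.5, 133 and 252 in germ-free descending colon, against 186, 111 and 135 in conventional descending colon. In the other regions it gave 9.3, 51.5 and 46.7 in germ-free jejunum, against 40.4, 19.6 and 154 in conventional jejunum, and 21.5, 56.8 and 259 in germ-free corpus, against 30.4, 39.4 and 13.7 in conventional corpus, and its colon minus corpus difference was 1.66 ± 0.56 over all 24 libraries (adjusted p = 0.0456) and 2.14 ± 0.34 without the 3 libraries (adjusted p = 6.57e-05). Whether these probes also bind Hoxa11 transcripts was not tested.

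Hoxa10, a gene of the uterus and lumbar vertebrae, gave 47.8, 63.2 and 65.1 in germ-free rectum, against 0.5, 48.4 and 64.3 in conventional rectum, and 58.1, 96 and 82 in germ-free descending colon, against 31, 67.9 and 50.4 in conventional descending colon. It lay at 1.3, 0.9 and 2.2 in germ-free jejunum, against 1.2, 9.8 and 75.3 in conventional jejunum, and 1.7, 4.5 and 85 in germ-free corpus, against 1.2, 2 and 2 in conventional corpus. All signals of the 10 jejunum and corpus libraries that match their labels were under the floor, and all 11 such hindgut signals were above it. Colon minus jejunum was 1.21 ± 0.37 over all 24 libraries (adjusted p = 0.0356) and 1.51 ± 0.22 without the 3 libraries (adjusted p = 4.37e-05), at least 2.85-fold in the second, and colon minus corpus was 1.18 ± 0.37 over all 24 libraries (adjusted p = 0.0325) and 1.51 ± 0.22 without the 3 libraries (adjusted p = 2.95e-05).

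Hoxa9, which also acts in blood progenitors, gave 157, 96.2 and 183 in germ-free rectum, against 16.2, 95 and 104 in conventional rectum, and 65.1, 148 and 170.1 in germ-free descending colon, against 72, 115 and 80.5 in conventional descending colon. In the other regions it gave 21.3, 29.7 and 50.7 in germ-free jejunum, against 23.7, 21.2 and 121 in conventional jejunum, and 7, 40 and 199 in germ-free corpus, against 16.3, 25.4 and 24.1 in conventional corpus. Germ-free descending colon 1 was the lowest of the hindgut libraries that match their labels. With all libraries the colon minus corpus difference, 1.49 ± 0.52, was not called (adjusted p = 0.0515), and without the 3 libraries it was 1.96 ± 0.29 (adjusted p = 2.90e-05). Colon minus jejunum was 1.52 ± 0.52 with all libraries (adjusted p = 0.0553) and 1.93 ± 0.29 without the 3 (adjusted p = 5.12e-05).

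**Figure D2:**
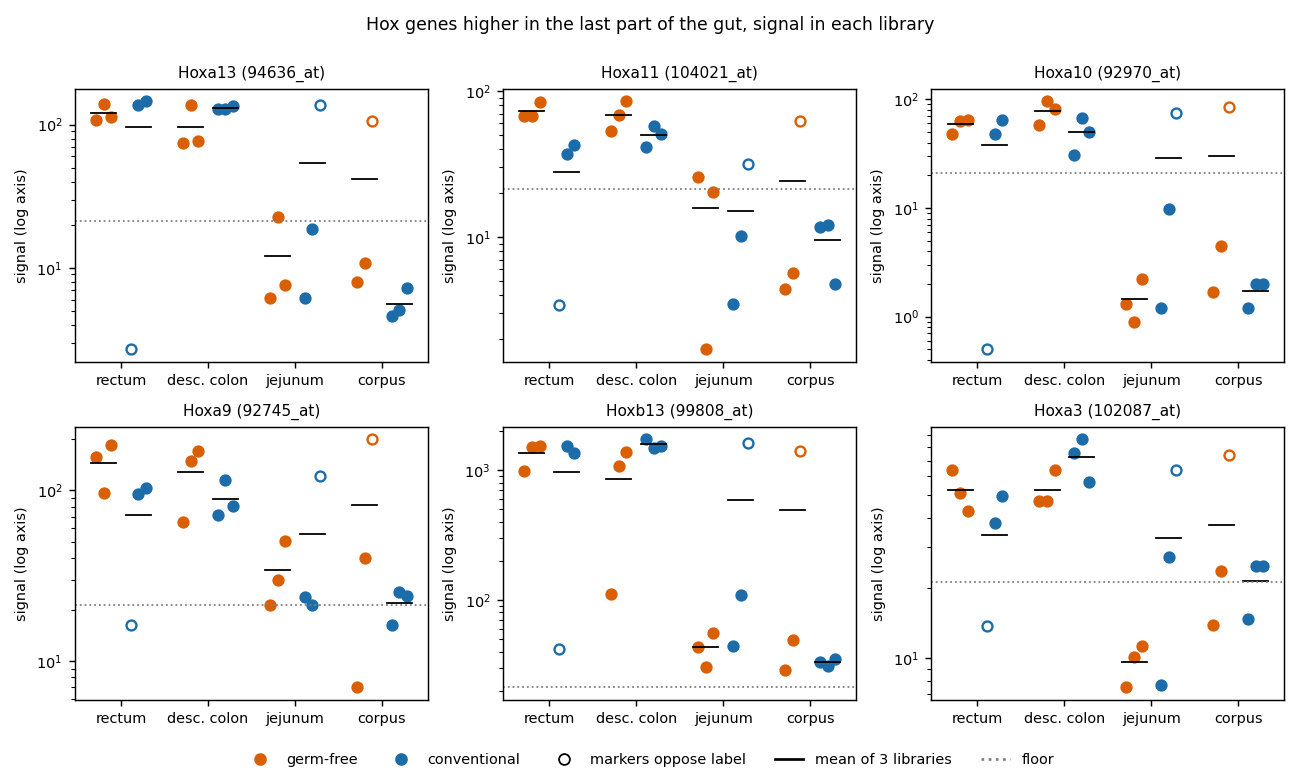
Signal on a log axis of Hoxa13, Hoxa11, Hoxa10, Hoxa9, Hoxb13 and Hoxa3 in each library, by region, with germ-free in orange left of conventional in blue, the mean of 3 as a bar and the floor of 21.2 dotted. Open circles are the 3 libraries whose markers oppose their labels: they sit with the hindgut for corpus and jejunum labels, and with the jejunum for the rectum label.

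The stretch before the start is shown for 2 Hoxa genes with high hindgut signals, Hoxa13 and Hoxa9. Of these, Hoxa9 was called only without the 3 libraries. Each line gives 250 bases upstream of the RefSeq start on the GRCm38.p6 build, 5′ to 3′ along the gene, at chr6:52260881-52261130 and chr6:52227371-52227620, both on the minus strand. Promoters were found for 62 of the 87 genes. The stretches were searched on both strands for TTTAT and TTTAC, cores known to be bound by caudal and posterior Hox proteins. Neither motif occurs in these 2 windows, so no base is in capitals. Among all 32851 promoters of that length, 37.3% hold TTTAT and 28.3% hold TTTAC. GC content is 80.0% in the Hoxa13 window and 49.6% in the Hoxa9 window, and the median over all promoters is 52.4%.
Hoxa13: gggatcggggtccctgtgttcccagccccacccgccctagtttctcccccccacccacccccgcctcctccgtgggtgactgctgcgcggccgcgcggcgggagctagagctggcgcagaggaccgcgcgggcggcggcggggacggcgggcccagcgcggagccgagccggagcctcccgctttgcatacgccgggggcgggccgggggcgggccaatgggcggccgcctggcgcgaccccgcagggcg
Hoxa9: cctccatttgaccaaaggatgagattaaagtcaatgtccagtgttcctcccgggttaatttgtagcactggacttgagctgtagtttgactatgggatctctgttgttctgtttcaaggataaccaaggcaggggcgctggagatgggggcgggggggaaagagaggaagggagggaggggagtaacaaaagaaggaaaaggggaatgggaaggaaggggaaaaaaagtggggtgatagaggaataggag

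The Hoxa genes towards the head end of the cluster were less uniform. Hoxa3, a gene of the pharyngeal arches and the thymus, gave 64, 51.1 and 42.6 in germ-free rectum, against 13.8, 37.9 and 49.7 in conventional rectum, and 47.1, 47 and 63.7 in germ-free descending colon, against 75.6, 86.6 and 56.8 in conventional descending colon. Above the colon it gave 7.5, 10.1 and 11.3 in germ-free jejunum, against 7.7, 27.2 and 63.7 in conventional jejunum, and 13.9, 23.6 and 74.4 in germ-free corpus, against 14.7, 24.7 and 24.8 in conventional corpus. Among libraries that match their labels, hindgut signals were all at or above 37.9 and the others at or below 27.2. Colon minus jejunum was 1.20 ± 0.31 over all 24 libraries (adjusted p = 0.015) and 1.44 ± 0.20 without the 3 libraries (adjusted p = 2.44e-05) and colon minus corpus 1.13 ± 0.31 over all 24 libraries (adjusted p = 0.0143) and 1.42 ± 0.20 without the 3 libraries (adjusted p = 1.95e-05).

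Hoxa5, which shapes lung and gut mesenchyme, gave 172, 102 and 171 in germ-free rectum, against 32.4, 157 and 127 in conventional rectum, and 129.5, 161 and 161 in germ-free descending colon, against 125, 151 and 91.2 in conventional descending colon. Its other signals were 34.4, 56.7 and 83.3 in germ-free jejunum, against 46.8, 40.5 and 160.3 in conventional jejunum, and 123, 98.5 and 159 in germ-free corpus, against 60.4, 76 and 68.3 in conventional corpus. Jejunum libraries that match their labels, at 83.3 or less, lay below all colon libraries. Descending colon was higher than jejunum by 1.15 ± 0.36 over all 24 libraries (adjusted p = 0.0387) and 1.46 ± 0.22 without the 3 libraries (adjusted p = 5.85e-05). The jejunum minus corpus difference was -0.60 ± 0.36 with all libraries (adjusted p = 0.221) and -0.83 ± 0.23 without the 3 (adjusted p = 0.00809), so that call rests on leaving them out.

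Hoxa7 gave 168, 42.1 and 57.3 in germ-free rectum, against 7.1, 68.5 and 112 in conventional rectum, and 164, 69.6 and 45.9 in germ-free descending colon, against 57.6, 135 and 20.4 in conventional descending colon. In jejunum and corpus it gave 6.3, 12.7 and 12.3 in germ-free jejunum, against 7.9, 12.8 and 128 in conventional jejunum, and 21, 17.6 and 43.9 in germ-free corpus, against 16.3, 18.1 and 15 in conventional corpus. Its hindgut signals spread widely, with germ-free rectum 1 and germ-free descending colon 1 highest and conventional descending colon 3 under the floor. Colon minus corpus was 1.47 ± 0.53 with all libraries (adjusted p = 0.0581) and 1.65 ± 0.43 without the 3 (adjusted p = 0.00619). Colon minus jejunum was 1.22 ± 0.53 and 1.65 ± 0.43 for the same sets (adjusted p = 0.132 and 0.00769).

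The tested probe sets of the remaining Hoxa genes were called in no regional comparison. Hoxa2, which patterns the hindbrain, gave 69.1, 75.5 and 87.3 in germ-free rectum, against 42.5, 66.1 and 64.8 in conventional rectum, and 74.2, 121 and 130.5 in germ-free descending colon, against 65.3, 77.4 and 101 in conventional descending colon. It gave 66.4, 65.3 and 88.5 in germ-free jejunum, against 55.3, 68.5 and 78.1 in conventional jejunum, and 89.8, 112 and 124 in germ-free corpus, against 60.6, 72.6 and 94.8 in conventional corpus, so the regions overlapped. Hoxa6 gave 92.1, 109.7 and 160.5 in germ-free rectum, against 49.6, 120.3 and 128 in conventional rectum, and 78.3, 108 and 116 in germ-free descending colon, against 142, 100.5 and 101 in conventional descending colon. Above, it gave 167, 39.9 and 118 in germ-free jejunum, against 121, 56 and 143 in conventional jejunum, and 97.6, 80.6 and 126 in germ-free corpus, against 69.4, 130.3 and 226 in conventional corpus, again with overlap. Hoxa4 had 3 tested probe sets, which differed among themselves. The brightest gave 339, 357 and 502 in germ-free rectum, against 349.5, 438 and 484 in conventional rectum, and 356, 359.8 and 496 in germ-free descending colon, against 529, 324 and 438 in conventional descending colon. It gave 562, 279.6 and 331 in germ-free jejunum, against 458, 496 and 461 in conventional jejunum, and 428, 558 and 443 in germ-free corpus, against 399.7, 458 and 743 in conventional corpus, all well above the floor. The second gave 11.8, 28.6 and 75.9 in germ-free rectum, against 14.7, 30.8 and 24.9 in conventional rectum, and 11.5, 71.1 and 102 in germ-free descending colon, against 32.1, 24.5 and 18.7 in conventional descending colon. It gave 16.2, 34 and 44.1 in germ-free jejunum, against 28.7, 1.7 and 27.8 in conventional jejunum, and 28.9, 24.8 and 114 in germ-free corpus, against 17.6, 27.4 and 13.5 in conventional corpus, with its highest signals in the close pair named above. The third, of type at, gave 34.6, 13 and 35.3 in germ-free rectum, against 11.6, 16 and 13.7 in conventional rectum, and 13.5, 21.1 and 93.8 in germ-free descending colon, against 18.8, 12.9 and 12.6 in conventional descending colon. It gave 83.1, 39.4 and 15 in germ-free jejunum, against 20.4, 15.8 and 13.6 in conventional jejunum, and 17.5, 58.2 and 81.7 in germ-free corpus, against 17.8, 24.7 and 24.3 in conventional corpus, with a few bright libraries among signals under or near the floor.

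No Hoxb gene other than Hoxb13 was called between the colon and a region above it. Hoxb1, a hindbrain gene, gave 45.4, 54.2 and 89.9 in germ-free rectum, against 43.4, 53.3 and 44 in conventional rectum, and 35.1, 81.4 and 143 in germ-free descending colon, against 48.2, 61.4 and 69.4 in conventional descending colon. It gave 52.3, 44.6 and 102 in germ-free jejunum, against 50.1, 39.3 and 59.9 in conventional jejunum, and 54.7, 55.3 and 106 in germ-free corpus, against 49.7, 58.2 and 79.5 in conventional corpus, with every region overlapping. Hoxb5, which acts in enteric neurons, gave 47.7, 71.4 and 85.4 in germ-free rectum, against 79.1, 86.7 and 115 in conventional rectum, and 177, 50.5 and 32.3 in germ-free descending colon, against 54.8, 68.9 and 99.7 in conventional descending colon. It gave 41.3, 57.1 and 96.9 in germ-free jejunum, against 57.6, 72.1 and 73 in conventional jejunum, and 146, 107 and 39.5 in germ-free corpus, against 104, 112 and 148 in conventional corpus. The jejunum minus corpus difference was -0.65 ± 0.36 with all libraries (adjusted p = 0.178) and -0.96 ± 0.37 without the 3 (adjusted p = 0.0443). Hoxb6 gave 76.7, 126 and 174 in germ-free rectum, against 181, 146 and 126 in conventional rectum, and 452, 187 and 214 in germ-free descending colon, against 178, 138 and 394 in conventional descending colon. It gave 149.9, 138 and 198 in germ-free jejunum, against 144, 168 and 126 in conventional jejunum, and 215, 212 and 171 in germ-free corpus, against 150.4, 226 and 243 in conventional corpus, and its highest signal was in germ-free descending colon 1. Hoxb7 gave 66.4, 64 and 108 in germ-free rectum, against 79.5, 85.1 and 57.4 in conventional rectum, and 197, 115 and 124 in germ-free descending colon, against 53.6, 79.3 and 71.8 in conventional descending colon. It gave 82.3, 77.5 and 91.9 in germ-free jejunum, against 88.2, 124 and 81.1 in conventional jejunum, and 169, 123 and 116 in germ-free corpus, against 137, 105 and 148 in conventional corpus. Set against the corpus, the jejunum differed by -0.55 ± 0.19 (adjusted p = 0.0318), and -0.54 ± 0.22 without the 3 libraries (adjusted p = 0.0575), so it was called with all libraries and not without the 3. It was also not called after quantile normalization or with equal array medians. Hoxb8, known for its part in blood progenitors, gave 163, 205 and 429 in germ-free rectum, against 156, 262 and 199 in conventional rectum, and 139, 258 and 534 in germ-free descending colon, against 296, 214 and 218 in conventional descending colon. It gave 314, 141 and 331 in germ-free jejunum, against 326, 181 and 268 in conventional jejunum, and 242, 199 and 493 in germ-free corpus, against 254, 333 and 459 in conventional corpus, with overlap between all regions. These are signals of its r_at probe set, while its s_at probe set was not tested and never passed 35.9.

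Among the Hoxc genes, which act at the level of the neck and trunk, Hoxc4, Hoxc5 and Hoxc8 were highest in the corpus. Hoxc5 gave 26.4, 24.3 and 15.6 in germ-free rectum, against 38.9, 30.5 and 40.1 in conventional rectum, and 16.9, 65.4 and 57.4 in germ-free descending colon, against 20.3, 35.3 and 47.5 in conventional descending colon. It gave 59.2, 8.1 and 54.9 in germ-free jejunum, against 52.8, 57.9 and 33.4 in conventional jejunum, and 219, 125 and 46.6 in germ-free corpus, against 202, 140.3 and 262 in conventional corpus. The 5 corpus libraries that match their labels were all at 125 or above, and no other library passed 65.4. Jejunum signals differed from corpus signals by -1.73 ± 0.36 over all 24 libraries (adjusted p = 0.00103) and -1.91 ± 0.35 without the 3 libraries (adjusted p = 2.24e-04) and colon minus corpus was -1.95 ± 0.36 over all 24 libraries (adjusted p = 7.30e-04) and -2.25 ± 0.34 without the 3 libraries (adjusted p = 3.12e-05). Hoxc8, a gene of thoracic vertebrae and forelimb motor neurons, gave 27.8, 42.3 and 87.9 in germ-free rectum, against 62.2, 46.2 and 36 in conventional rectum, and 23.5, 71.7 and 91.3 in germ-free descending colon, against 51.2, 50.2 and 50 in conventional descending colon. It gave 53.4, 58.5 and 100 in germ-free jejunum, against 72.7, 103 and 55.2 in conventional jejunum, and 293, 161 and 97.2 in germ-free corpus, against 319, 240.2 and 294 in conventional corpus. Again these 5 corpus libraries, at 161 or above, stood over every other. Jejunum minus corpus was -1.61 ± 0.34 over all 24 libraries (adjusted p = 0.00101) and -1.69 ± 0.35 without the 3 libraries (adjusted p = 7.25e-04) and colon minus corpus -2.06 ± 0.34 over all 24 libraries (adjusted p = 2.09e-04) and -2.25 ± 0.34 without the 3 libraries (adjusted p = 3.11e-05).

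Hoxc4 gave 19.4, 39.4 and 25.6 in germ-free rectum, against 33.7, 29.5 and 28 in conventional rectum, and 22.9, 35.6 and 39.3 in germ-free descending colon, against 32.5, 24.2 and 16.5 in conventional descending colon. It gave 46.5, 26.4 and 30 in germ-free jejunum, against 39.3, 21.5 and 22.3 in conventional jejunum, and 74.7, 93.5 and 43.8 in germ-free corpus, against 82.7, 52.6 and 84.2 in conventional corpus, and all 6 colon libraries lay below all 6 labelled corpus. The jejunum minus corpus difference was -1.22 ± 0.25 over all 24 libraries (adjusted p = 9.01e-04) and -1.31 ± 0.28 without the 3 libraries (adjusted p = 7.69e-04), and colon minus corpus -1.29 ± 0.25 over all 24 libraries (adjusted p = 0.00114) and -1.44 ± 0.26 without the 3 libraries (adjusted p = 2.80e-04). Hoxc6 gave 22.1, 21.2 and 40.7 in germ-free rectum, against 22.7, 23.5 and 15.4 in conventional rectum, and 11.2, 69 and 119.5 in germ-free descending colon, against 43.5, 28.9 and 5 in conventional descending colon. It gave 15.2, 46.8 and 110.0 in germ-free jejunum, against 41.8, 14.9 and 27.2 in conventional jejunum, and 63.2, 68.8 and 118 in germ-free corpus, against 52.5, 57.2 and 42.9 in conventional corpus and was not called between regions.

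Hoxd11 and Hoxd13 were seen in some hindgut libraries and not in others of the same group. Hoxd11, which acts in the forearm and kidney, gave 5, 102 and 8.3 in germ-free rectum, against 5.2, 93.2 and 11.8 in conventional rectum, and 52.8, 7.2 and 10.2 in germ-free descending colon, against 83, 6.3 and 132 in conventional descending colon. It gave 10.4, 5.7 and 8 in germ-free jejunum, against 12.2, 5.2 and 79.5 in conventional jejunum, and 4.1, 8 and 10.8 in germ-free corpus, against 6.5, 6.9 and 9.3 in conventional corpus. Of the 13 libraries with hindgut markers, 6 passed 51.5, with a lowest of 52.8, and the other 7 were at 11.8 or less. No library without hindgut markers passed 12.2. Hoxd13, which was not tested, passed 51.5 in conventional descending colon 3, at 120.4, and in conventional rectum 2, at 80.9. Hoxd10, a gene of lumbar motor neurons whose probe set rests on the same accession as that of Hoxd9, gave 12.6, 53.5 and 25.9 in germ-free rectum, against 26.4, 58.3 and 15.1 in conventional rectum, and 31, 16.1 and 55.6 in germ-free descending colon, against 98.8, 14.6 and 88.1 in conventional descending colon. It gave 20.6, 52.9 and 20.4 in germ-free jejunum, against 50.6, 70.6 and 45.2 in conventional jejunum, and 11.6, 15.3 and 40.1 in germ-free corpus, against 9.2, 12.7 and 19.3 in conventional corpus, with overlap between regions. The dimmer Hoxd8 probe set gave 12.9, 33.6 and 48.1 in germ-free rectum, against 26.8, 25.3 and 36.5 in conventional rectum, and 92.7, 55.6 and 32.5 in germ-free descending colon, against 27, 31.8 and 129.9 in conventional descending colon. It gave 27.8, 31.5 and 28.3 in germ-free jejunum, against 27.3, 23.1 and 15.7 in conventional jejunum, and 26.5, 18.4 and 26.6 in germ-free corpus, against 19.8, 18.6 and 31.1 in conventional corpus, and colon minus corpus was 1.08 ± 0.33 over all 24 libraries (adjusted p = 0.0277) and 1.11 ± 0.37 without the 3 libraries (adjusted p = 0.0295). The brighter one gave 73.5, 107 and 107 in germ-free rectum, against 83.9, 108 and 81.1 in conventional rectum, and 149, 164 and 170.1 in germ-free descending colon, against 60.9, 107 and 197 in conventional descending colon. It gave 55, 67.1 and 168 in germ-free jejunum, against 102, 84 and 64.8 in conventional jejunum, and 99.9, 109 and 175 in germ-free corpus, against 69.4, 104 and 133 in conventional corpus and was not called.

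By cluster, 7 of 14 tested Hoxa probe sets were higher in descending colon than in jejunum, against 9.1% of all probe sets tested, and 1 of 7 Hoxb, 0 of 4 Hoxc and 0 of 5 Hoxd probe sets. With the 3 libraries left out 9 of 14 Hoxa and 1 of 7 Hoxb probe sets were higher, and 0 of the Hoxc and Hoxd probe sets, against 15.7% of all. By number, 6 tested probe sets of paralogs 9 to 13 were higher, and 2 of paralogs 1 to 8. These counts describe the probe sets that passed the filter on low signals and support no difference between the groups of genes. Only 9 of 14 probe sets of paralogs 9 to 13 were tested, and 6 of the 9 (Hoxa9, Hoxa10, Hoxa11, Hoxa13, Hoxd11 and 1 of Hoxa11os) passed 51.5 in no library without hindgut markers. The other tested ones, Hoxb13, Hoxd10 and the f_at probe set of Hoxa11os, passed it in fewer than 3 libraries without hindgut markers, short of what the filter asks for. Of paralogs 1 to 8, 21 of 29 were tested, and 4 of the 21 passed 51.5 in no library without hindgut markers. Hoxa11os and its partner share a locus, and neighbouring genes of a cluster are not independent of each other.

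**Figure D3:**
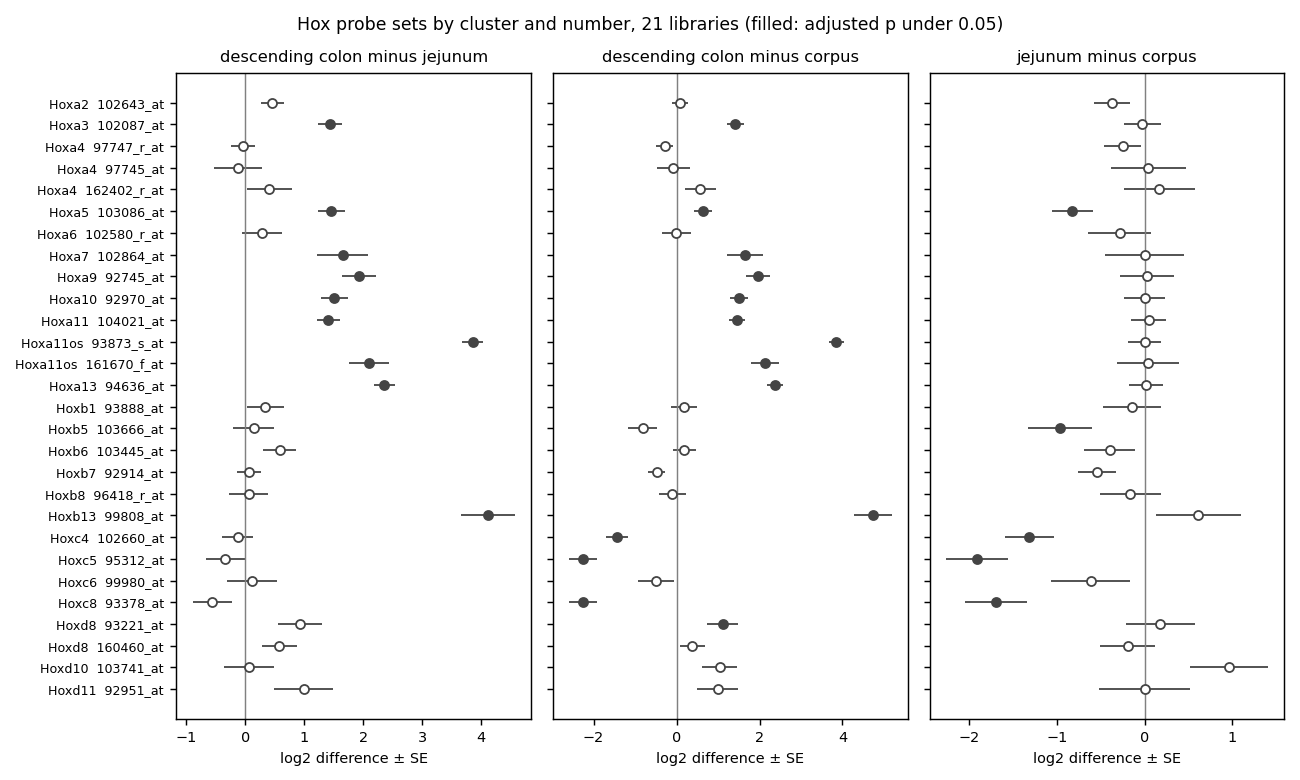
Log2 difference ± SE of each tested Hox probe set with 1 symbol in 3 regional comparisons over the 21 libraries that match their labels, ordered by cluster and gene number down the page, filled where the adjusted p is under 0.05. Hoxa3, Hoxa5, Hoxa7 and the Hoxa genes from Hoxa9 on, with Hoxb13, lie right of 0 for descending colon, and Hoxc4, Hoxc5 and Hoxc8 lie left of 0 against the corpus.

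Setting aside labels, 13 libraries scored highest for hindgut markers and 11 for stomach or jejunal markers, among them germ-free corpus 2 with its high Car1. In 8 of 62 tested homeobox probe sets every signal of the 13 lay above every signal of the 11, against 1.66% of all probe sets. They were Hoxa3, Hoxa9, Hoxa10, Hoxa11, both probe sets of Hoxa11os, Hoxa13 and Hoxb13. None lay below in the same way, against 0.421% of all. These 2 sets of libraries were formed from the data and not by the study, so no test is given. Of the 8, 6 passed the filter through the 13 libraries alone, so their high signals there are what let them be tested. The narrowest gap of the 8 was that of Hoxb13, whose signals were 112 or more against 109 or less, and for Hoxa13 the signals were 75 or more against 22.8 or less.

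The caudal genes Cdx1 and Cdx2, which act in intestinal but not gastric epithelium, were both lower in the corpus than in the jejunum. Cdx1 read 732, 862 and 675 in germ-free rectum, against 493, 933 and 918 in conventional rectum, and 667, 789 and 789 in germ-free descending colon, against 913, 836 and 552 in conventional descending colon. It read 508, 611 and 517 in germ-free jejunum, against 437, 478 and 709 in conventional jejunum, and 8.5, 62.2 and 804 in germ-free corpus, against 6.6, 22.6 and 9.6 in conventional corpus. The corpus libraries that match their labels were at 62.2 or less, and no other library was under 437. Set against the corpus, the jejunum differed by 3.51 ± 0.52 over all 24 libraries (adjusted p = 3.93e-05) and 4.15 ± 0.21 without the 3 libraries (adjusted p = 1.09e-11), and colon minus corpus was 3.99 ± 0.52 over all 24 libraries (adjusted p = 3.37e-05) and 4.74 ± 0.20 without the 3 libraries (adjusted p = 1.02e-12). Between colon and jejunum it differed by 0.48 ± 0.52 with all libraries (adjusted p = 0.599) and by 0.59 ± 0.20 without the 3 (adjusted p = 0.0412).

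Cdx2 read 76.6, 4.4 and 75.9 in germ-free rectum, against 110.1, 29.6 and 48.6 in conventional rectum, and 95.6, 51.3 and 74.8 in germ-free descending colon, against 27.2, 79.4 and 5.8 in conventional descending colon. It read 103, 106 and 103 in germ-free jejunum, against 112, 105 and 26.9 in conventional jejunum, and 2.4, 29.7 and 57.8 in germ-free corpus, against 4.4, 4.3 and 4.9 in conventional corpus. The 5 jejunum libraries that match their labels ran from 103 to 112, while the hindgut spread from under the floor to 95.6. Jejunum signals differed from corpus signals by 1.67 ± 0.43 over all 24 libraries (adjusted p = 0.00536) and 2.20 ± 0.37 without the 3 libraries (adjusted p = 9.51e-05). Descending colon minus jejunum was -0.73 ± 0.43 with all libraries (adjusted p = 0.278) and -1.07 ± 0.36 without the 3 (adjusted p = 0.033), so a lower colon is called only in the second. Descending colon minus corpus was 0.93 ± 0.43 with all libraries and was not called (adjusted p = 0.151), and it was 1.13 ± 0.36 without the 3 (adjusted p = 0.0205). Of the 6 hindgut-marker libraries in which Hoxd11 passed 51.5, 5 had Cdx2 at 29.6 or less, and germ-free descending colon 1 had 95.6. The other 7 had Cdx2 at 48.6 or more. These libraries were set apart after the values were seen. Cdx4 never passed the floor, with a highest signal of 12.0.

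The 250 bases before the Cdx2 start at chr5:147307250-147307499, minus strand, hold 1 match to TTTAC, read from its other strand as GTAAA and given in capitals. The match begins 40 bases before the start. It is shown because Cdx proteins bind such cores, and a match is a string of letters, not a shown site.
Cdx2: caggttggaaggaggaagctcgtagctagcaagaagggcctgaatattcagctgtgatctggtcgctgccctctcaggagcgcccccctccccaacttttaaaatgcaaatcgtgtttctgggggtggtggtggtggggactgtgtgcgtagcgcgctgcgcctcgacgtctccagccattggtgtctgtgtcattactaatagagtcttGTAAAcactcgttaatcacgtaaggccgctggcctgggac

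Hlx, which drives growth of gut mesenchyme and liver, gave 92.1, 123 and 92.6 in germ-free rectum, against 90.9, 119.6 and 110.1 in conventional rectum, and 94.4, 118 and 122 in germ-free descending colon, against 106, 84.8 and 139 in conventional descending colon. It gave 90.3, 115 and 101 in germ-free jejunum, against 72.6, 66.2 and 98.7 in conventional jejunum, and 76.3, 58.7 and 105 in germ-free corpus, against 32.9, 41.8 and 21.2 in conventional corpus. It was higher outside the corpus, by 0.86 ± 0.19 over all 24 libraries (adjusted p = 0.00175) and 0.89 ± 0.21 without the 3 libraries (adjusted p = 0.00184) for jejunum and by 1.16 ± 0.19 over all 24 libraries (adjusted p = 2.45e-04) and 1.27 ± 0.20 without the 3 libraries (adjusted p = 4.52e-05) for colon. Nkx2-3, a factor of gut mesenchyme and spleen, gave 58.6, 76.9 and 54.5 in germ-free rectum, against 55.3, 53.2 and 50.8 in conventional rectum, and 56.7, 73.5 and 34.2 in germ-free descending colon, against 52.6, 45.2 and 66.2 in conventional descending colon. It gave 53.1, 20.8 and 61.1 in germ-free jejunum, against 39.2, 26 and 54.7 in conventional jejunum, and 17.3, 17.1 and 38.5 in germ-free corpus, against 20.4, 52.6 and 19 in conventional corpus. Colon minus corpus was 0.96 ± 0.30 over all 24 libraries (adjusted p = 0.0309) and 1.11 ± 0.31 without the 3 libraries (adjusted p = 0.0112), and neither neighbouring pair of regions was called. Pdx1, which acts in pancreas, antrum and duodenum, never passed 16.7 and has no measured level here.

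**Figure D4:**
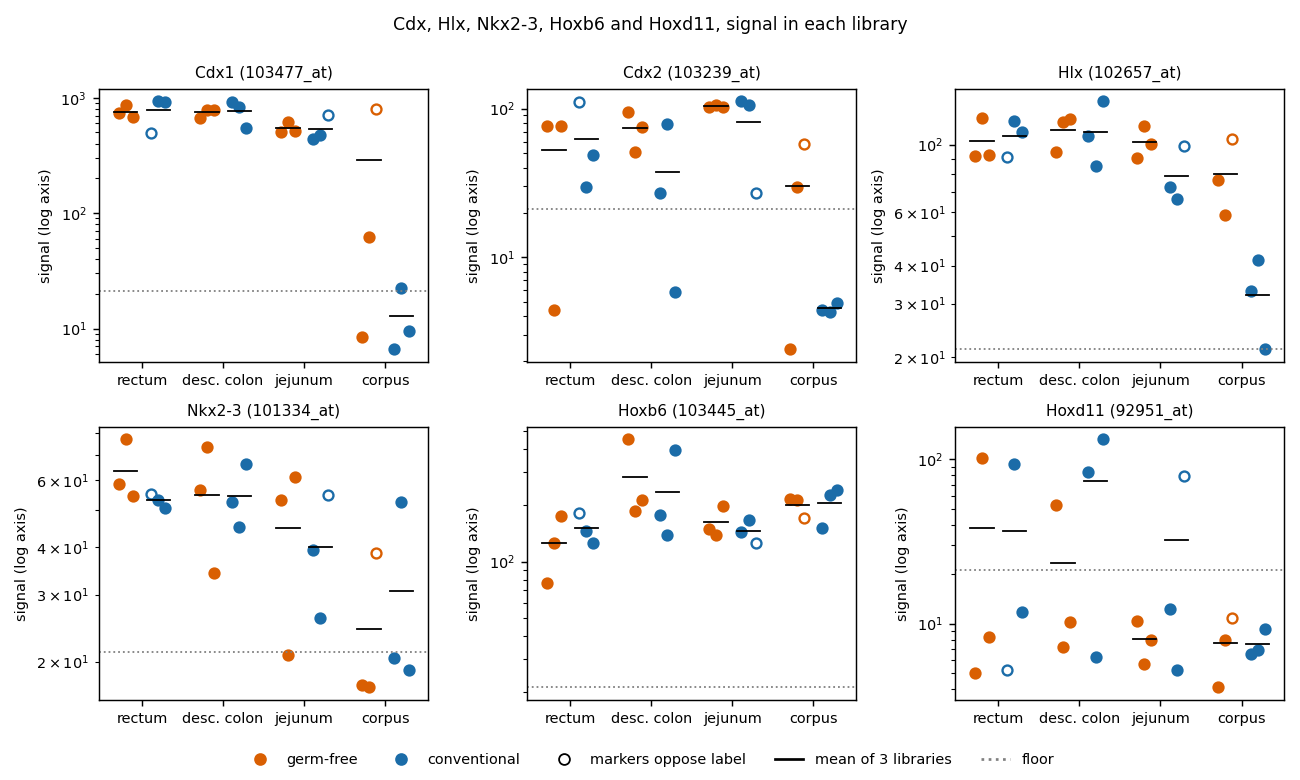
Signal on a log axis of Cdx1, Cdx2, Hlx, Nkx2-3, Hoxb6 and Hoxd11 in each library, by region, with germ-free in orange left of conventional in blue, the mean of 3 as a bar and the floor of 21.2 dotted. Cdx1 and Cdx2 are low in the corpus apart from the open circle, Cdx2 also in some hindgut libraries, and Hoxd11 falls into 6 high and 7 low libraries among those with hindgut markers.

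The corpus had its own set. Dlx3, Meis1, Hoxc4 and the Barx1 probe set given first here passed 51.5 in corpus libraries alone. Outside the corpus they reached at most 43.3, 32.7, 46.5 and 26.5, so their high corpus signals are what let them be tested. The same holds for Barx2 and the other Barx1 probe set, which passed 51.5 outside the corpus in fewer than the 3 libraries the filter asks for. The counts of members lower in jejunum or colon than in corpus therefore describe only probe sets that passed the filter. Pitx1, which specifies the hindlimb and the pituitary, gave 292, 297 and 191 in germ-free rectum, against 251, 303 and 237 in conventional rectum, and 136, 192 and 237 in germ-free descending colon, against 254, 215 and 295 in conventional descending colon. It gave 203, 194 and 183 in germ-free jejunum, against 216, 239 and 286 in conventional jejunum, and 1662, 958 and 206 in germ-free corpus, against 1724, 1558 and 1702 in conventional corpus. The 5 corpus libraries that match their labels were at 958 or above, and every other library at 303 or below. Jejunum minus corpus was -2.30 ± 0.32 over all 24 libraries (adjusted p = 2.26e-05) and -2.79 ± 0.18 without the 3 libraries (adjusted p = 3.51e-10), and colon minus corpus was -2.31 ± 0.32 over all 24 libraries (adjusted p = 4.64e-05) and -2.75 ± 0.17 without the 3 libraries (adjusted p = 2.27e-10). Barx1, the stomach mesenchyme factor, gave 4.2, 26.5 and 14.9 in germ-free rectum, against 7, 6.5 and 3.4 in conventional rectum, and 5.8, 11.7 and 13.8 in germ-free descending colon, against 8.7, 3.6 and 4 in conventional descending colon. It gave 10.7, 9.9 and 14.7 in germ-free jejunum, against 5.2, 14.8 and 6.1 in conventional jejunum, and 137, 105 and 17.1 in germ-free corpus, against 124, 128 and 106 in conventional corpus. In those 5 corpus libraries the signal was 105 or more, and in the jejunum and colon libraries it was under the floor throughout. The jejunum minus corpus difference was -2.08 ± 0.30 over all 24 libraries (adjusted p = 3.56e-05) and -2.49 ± 0.19 without the 3 libraries (adjusted p = 3.45e-09), with the corpus at least 5.63-fold higher in the second. Its other probe set gave 10.4, 42.4 and 44.8 in germ-free rectum, against 6, 75.6 and 8.2 in conventional rectum, and 25.3, 18.4 and 11.3 in germ-free descending colon, against 9, 34.6 and 25.8 in conventional descending colon. It gave 37.4, 46.2 and 19.9 in germ-free jejunum, against 9.3, 36.4 and 25.4 in conventional jejunum, and 90.5, 111 and 18.2 in germ-free corpus, against 112, 103 and 129 in conventional corpus, and jejunum minus corpus was -1.46 ± 0.38 over all 24 libraries (adjusted p = 0.00559) and -1.82 ± 0.34 without the 3 libraries (adjusted p = 2.32e-04).

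Dlx3, a gene of skin, teeth and placenta, had lowest, median and highest signals of 6.4, 14 and 22.6 in rectum, 11.1, 16.5 and 28 in colon, 11.1, 14.1 and 43.3 in jejunum and 27.5, 238 and 285 in corpus. Set against the corpus, the jejunum differed by -2.76 ± 0.36 over all 24 libraries (adjusted p = 1.20e-05) and -3.25 ± 0.21 without the 3 libraries (adjusted p = 3.93e-10) and colon minus corpus -2.92 ± 0.36 over all 24 libraries (adjusted p = 3.24e-05) and -3.41 ± 0.20 without the 3 libraries (adjusted p = 1.10e-10). Irx3, which patterns neural tube and heart, stood at 25.9, 33 and 59.6 in rectum, 20.1, 35.1 and 83.8 in colon, 16.5, 38 and 44.5 in jejunum and 114, 225 and 318 in corpus. Even with the library labelled germ-free corpus 3 counted, its 6 corpus signals lay above all 6 of jejunum and all 6 of colon. Jejunum signals differed from corpus signals by -2.56 ± 0.28 over all 24 libraries (adjusted p = 4.85e-06) and -2.69 ± 0.32 without the 3 libraries (adjusted p = 1.37e-06), and colon minus corpus was -2.37 ± 0.28 over all 24 libraries (adjusted p = 3.03e-05) and -2.49 ± 0.30 without the 3 libraries (adjusted p = 2.72e-06). Barx2, a factor of muscle and of ectodermal organs, ran at 9.7, 17.1 and 24.7 in colon, 9.4, 20.2 and 58.8 in jejunum and 17.5, 102 and 130.3 in corpus. Its jejunum minus corpus difference was -1.42 ± 0.34 over all 24 libraries (adjusted p = 0.003) and -1.32 ± 0.39 without the 3 libraries (adjusted p = 0.01).

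**Figure D5:**
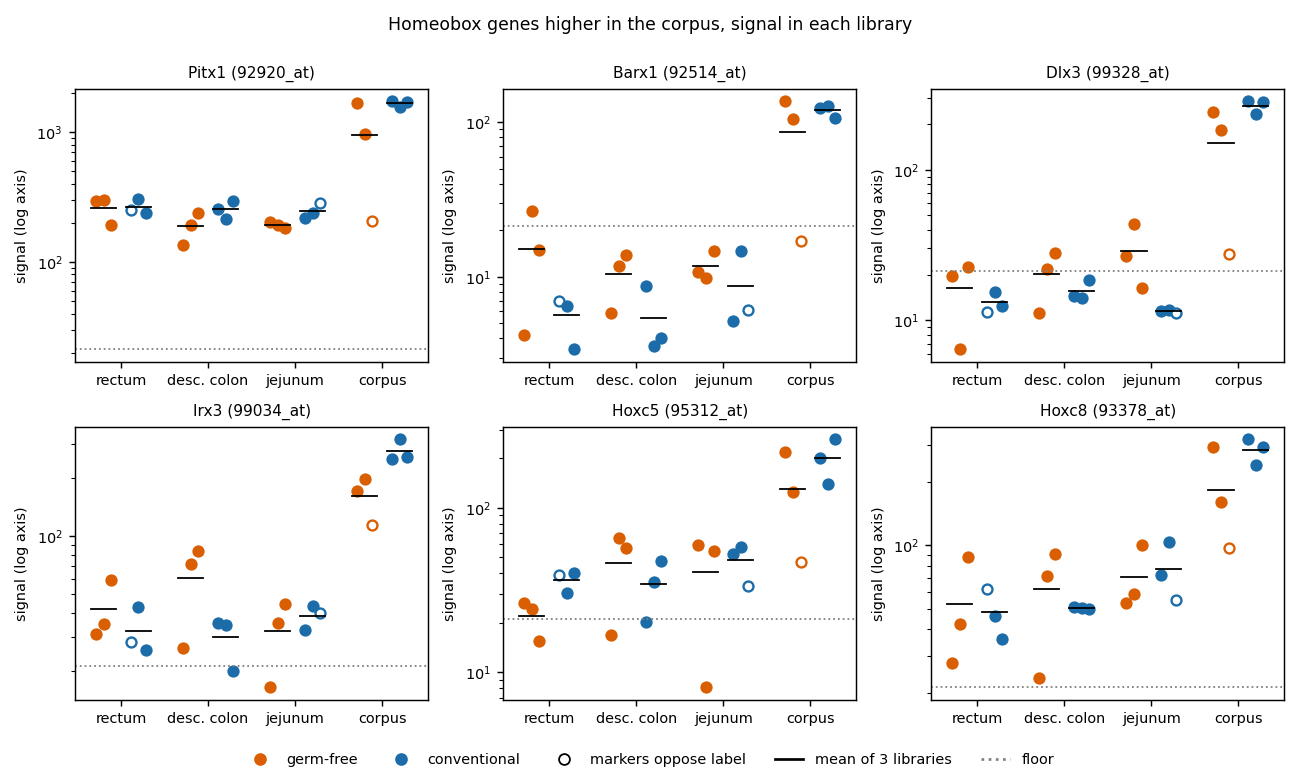
Signal on a log axis of Pitx1, Barx1, Dlx3, Irx3, Hoxc5 and Hoxc8 in each library, by region, with germ-free in orange left of conventional in blue, the mean of 3 as a bar and the floor of 21.2 dotted. The filled corpus circles lie above all other circles in these 6 genes, and the open corpus circle, the library labelled germ-free corpus 3, lies below them.

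The Hox cofactors Meis1 and Pbx3 were lower in the jejunum than in the corpus. Meis1 gave 15.5, 25.7 and 10.5 in germ-free rectum, against 11.6, 19.5 and 17.3 in conventional rectum, and 31.8, 32.7 and 10 in germ-free descending colon, against 25.8, 13.1 and 27.7 in conventional descending colon. It gave 19.8, 1.9 and 6.3 in germ-free jejunum, against 2.9, 4.2 and 16.7 in conventional jejunum, and 94.6, 70.7 and 9.3 in germ-free corpus, against 78.4, 38.7 and 80.6 in conventional corpus. Jejunum minus corpus was -1.43 ± 0.29 over all 24 libraries (adjusted p = 6.93e-04) and -1.75 ± 0.25 without the 3 libraries (adjusted p = 1.09e-05), with the corpus at least 3.37-fold higher in the second. All 3 probe sets of Pbx3 were lower in jejunum than in corpus. The first, of type at, ran at 169, 189.7 and 303 in colon, 76.4, 100.2 and 173 in jejunum and 178, 275 and 533 in corpus, and jejunum minus corpus was -1.48 ± 0.27 over all 24 libraries (adjusted p = 2.39e-04) and -1.86 ± 0.21 without the 3 libraries (adjusted p = 5.26e-07). For the probe set of type g_at that difference was -1.28 ± 0.22 over all 24 libraries (adjusted p = 1.96e-04) and -1.53 ± 0.21 without the 3 libraries (adjusted p = 9.83e-06). For the third it was -0.96 ± 0.18 over all 24 libraries (adjusted p = 4.60e-04) and -1.12 ± 0.18 without the 3 libraries (adjusted p = 4.48e-05). The first was also higher in colon than in jejunum, by 0.96 ± 0.27 over all 24 libraries (adjusted p = 0.0203) and 1.12 ± 0.19 without the 3 libraries (adjusted p = 2.54e-04). Pbx2 ran at 81.8, 100.5 and 114 in colon, 73, 92.3 and 102 in jejunum and 55, 81.4 and 99.9 in corpus, and its colon minus corpus difference was 0.34 ± 0.15 with all libraries (adjusted p = 0.133) and 0.46 ± 0.15 without the 3 (adjusted p = 0.0281).

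The windows before Barx1, at chr13:48662786-48663035 on the plus strand, and Irx3, at chr8:91801655-91801904 on the minus strand, are shown as those of corpus genes on different chromosomes. Barx1 has neither motif, and Irx3 has 1 match to TTTAC, in capitals as GTAAA, beginning 186 bases before its start. Their GC contents are 85.6% and 56.0%.
Barx1: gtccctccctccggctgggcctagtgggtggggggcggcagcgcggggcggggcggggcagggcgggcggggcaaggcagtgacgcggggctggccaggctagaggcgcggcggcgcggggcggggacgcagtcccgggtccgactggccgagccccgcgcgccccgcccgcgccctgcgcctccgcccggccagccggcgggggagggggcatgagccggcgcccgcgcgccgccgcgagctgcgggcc
Irx3: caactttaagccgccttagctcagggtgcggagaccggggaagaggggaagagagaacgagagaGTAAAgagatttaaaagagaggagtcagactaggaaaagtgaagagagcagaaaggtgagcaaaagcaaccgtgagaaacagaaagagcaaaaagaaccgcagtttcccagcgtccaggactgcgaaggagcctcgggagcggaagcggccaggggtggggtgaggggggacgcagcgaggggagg

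In all, 19 of 62 homeobox probe sets differed between jejunum and corpus, against 32.9% of all probe sets tested: 4 were higher in jejunum, against 13.7%, and 15 lower, against 19.2%. The 4 higher ones were Cdx1, Cdx2, Hlx and Lhx1, a kidney and head organiser gene, whose difference was 0.97 ± 0.29 over all 24 libraries (adjusted p = 0.0139) and 1.23 ± 0.30 without the 3 libraries (adjusted p = 0.00304). Lhx6, a gene of cortical interneurons, was among the lower ones, at -0.67 ± 0.22 over all 24 libraries (adjusted p = 0.0243) and -0.69 ± 0.25 without the 3 libraries (adjusted p = 0.0354). Without the 3 libraries 21 of 60 were called, against 39.4%, with 5 higher, against 17.1%, and 16 lower, against 22.3%. The median difference was -0.23 for homeobox probe sets and -0.10 for all. None of the 19 differences changed sign under quantile normalization or with equal array medians.

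Between descending colon and corpus 22 of 62 were called, against 18.3% of all: 12 higher in colon, against 9.49%, and 10 lower, against 8.77%. Without the 3 libraries the count was 31 of 60, against 30%, with 18 higher, against 15.5%, and 13 lower, against 14.5%. Median differences were -0.07 for homeobox probe sets and 0.01 for all. The colon minus corpus difference of Lhx1 was 0.90 ± 0.29 over all 24 libraries (adjusted p = 0.0354) and 1.11 ± 0.29 without the 3 libraries (adjusted p = 0.00645). Among the lower ones, Barx1 stood at -2.08 ± 0.30 over all 24 libraries (adjusted p = 7.48e-05) and -2.49 ± 0.18 without the 3 libraries (adjusted p = 2.00e-09). Barx2 differed by -1.69 ± 0.34 over all 24 libraries (adjusted p = 0.00138) and -1.72 ± 0.37 without the 3 libraries (adjusted p = 0.0013). Meis1 differed by -1.12 ± 0.29 over all 24 libraries (adjusted p = 0.00925) and -1.44 ± 0.23 without the 3 libraries (adjusted p = 8.25e-05). Among those called only without the 3 libraries, Pax1, a gene of the vertebral column and thymus, was higher in colon by 1.04 ± 0.29 (adjusted p = 0.0109). Between descending colon and jejunum 10 of 62 were called, against 14.4% of all in either direction. All 10 were higher in colon and 0 lower, where 5.34% of all were lower. Without the 3 libraries 15 of 60 were called, against 25.4%, with 14 higher, against 15.7%, and Cdx2 alone lower, against 9.72%. The first count rests on few libraries: it was 1 without conventional jejunum 1, 3 without conventional jejunum 2, 5 without germ-free jejunum 1, germ-free jejunum 2 or conventional descending colon 3, and 6 without germ-free descending colon 2. Over all probe sets the counts in the same order were 579, 645, 798, 928, 909 and 848, and 1304 with all libraries.

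Markers of other tissue layers moved with these regions. Over libraries that match their labels, the summed signal of 7 squamous epithelium markers was 267 to 4061 in rectum, 301 to 687 in colon, 292 to 648 in jejunum and 41739 to 50850.1 in corpus, and 7 of 8 tested probe sets were lower in jejunum than in corpus over all libraries, against 19.2% of all probe sets. That of 7 smooth muscle markers was 9478 to 19580.0 in rectum, 12563 to 24257 in colon, 5291 to 9918 in jejunum and 20445 to 28845 in corpus. That of 6 fibroblast markers was 7140.3 to 9683 in colon, 4047 to 5251 in jejunum and 12031 to 15012 in corpus. That of 6 markers of gut epithelium was 16884 to 21600.0 in colon, 17269 to 26948 in jejunum and 4962 to 11839 in corpus. The part of these layers in the homeobox differences was not tested.

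The genes named from the next 2 lists were picked after their values were seen. Genes that set up the gut axis were looked at as a list of 43 signals and Hox regulators, of which 28 were tested with 38 probe sets. Between jejunum and corpus 3 of 38 were higher, against 13.7% of all probe sets, and 12 lower, against 19.2%, with a median of -0.37 and -0.10 over all probe sets. The lower ones included Shh, the hedgehog ligand, at -2.53 ± 0.34 with all libraries (adjusted p = 1.62e-05) and -2.80 ± 0.37 without the 3 (adjusted p = 4.94e-06). Wnt4, a Wnt ligand, was lower at -3.06 ± 0.41 with all libraries (adjusted p = 1.57e-05) and -3.62 ± 0.24 without the 3 (adjusted p = 4.04e-10). Crabp2, a carrier of retinoic acid, stood at -3.44 ± 0.47 with all libraries (adjusted p = 2.02e-05) and -4.10 ± 0.24 without the 3 (adjusted p = 5.02e-11). Sfrp2, a secreted Wnt antagonist, stood at -1.88 ± 0.29 with all libraries (adjusted p = 7.08e-05) and -2.10 ± 0.26 without the 3 (adjusted p = 2.21e-06). Ihh, the other hedgehog ligand of gut epithelium, was higher in jejunum, at 0.92 ± 0.21 with all libraries (adjusted p = 0.00206) and 1.12 ± 0.15 without the 3 (adjusted p = 7.68e-06). Between colon and jejunum 7 of 38 were higher, against 9.1% of all, and 1 lower, against 5.34%. Among the higher ones was Wnt5a, a ligand of hindgut mesenchyme, at 1.21 ± 0.33 with all libraries (adjusted p = 0.019) and 1.31 ± 0.33 without the 3 (adjusted p = 0.00576). Rnf2, a Polycomb subunit, was higher at 1.06 ± 0.20 with all libraries (adjusted p = 0.00291) and 1.19 ± 0.20 without the 3 (adjusted p = 1.55e-04). Between colon and corpus 3 were higher, against 9.49%, and 6 lower, against 8.77%, and between rectum and colon 0 were called, against 0%. Over 21 libraries, 37 probe sets of the list were tested, and the counts were 3 higher and 13 lower for jejunum minus corpus, 12 higher and 3 lower for colon minus jejunum and 4 higher and 8 lower for colon minus corpus. The shares of all probe sets in the same order were 17.1% and 22.3%, 15.7% and 9.72%, and 15.5% and 14.5%.

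A list of 20 endoderm transcription factors, 13 of them tested with 14 probe sets, had 3 higher and 5 lower in jejunum than in corpus, against 13.7% and 19.2% of all probe sets. Sox2, a factor of foregut endoderm, was lower at -4.26 ± 0.50 with all libraries (adjusted p = 6.20e-06) and -4.94 ± 0.29 without the 3 (adjusted p = 7.41e-11). Hnf4a, a factor of enterocytes and hepatocytes, was higher at 2.38 ± 0.41 with all libraries (adjusted p = 1.53e-04) and 2.83 ± 0.28 without the 3 (adjusted p = 1.27e-07). Between colon and jejunum Gata5, a factor of heart and gut endoderm, was lower at -2.60 ± 0.52 with all libraries (adjusted p = 0.00438) and -3.11 ± 0.21 without the 3 (adjusted p = 1.35e-09). Foxa2, a factor of early endoderm, was higher at 2.29 ± 0.55 with all libraries (adjusted p = 0.0112) and 2.69 ± 0.25 without the 3 (adjusted p = 1.60e-07). In that comparison 3 of 14 were higher and 1 lower, against 9.1% and 5.34% of all. Between colon and corpus 2 were higher and 2 lower, against 9.49% and 8.77%. Over 21 libraries they were 3 higher and 6 lower for jejunum minus corpus, 5 higher and 2 lower for colon minus jejunum and 3 higher and 2 lower for colon minus corpus, to be read against the same 6 shares as the first list.

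No homeobox probe set was called between rectum and descending colon. By limma 0 of 62 were called, against 0% of all probe sets, and 4 of 62 had an unadjusted p under 0.05, as did 202 of 9033 overall. Without the 3 libraries the counts were 0 and 3 of 60, as against 0 and 217 of 8856 overall. The members of lowest p were Hoxb6, at -0.83 ± 0.26, the probe set shared by Hoxd4 and Hoxd3, Hoxa2, at -0.48 ± 0.19, and the dimmer Hoxd8 probe set, at -0.74 ± 0.33, each with an adjusted p of 1. Over 21 libraries these were -0.90 ± 0.28 for Hoxb6, -0.37 ± 0.20 for Hoxa2 and -0.71 ± 0.37 for Hoxd8. For Hoxa13 rectum minus colon was -0.21 ± 0.50, and without the 3 libraries 0.25 ± 0.18. For Hoxb13 the same values were -0.29 ± 1.00 and 0.56 ± 0.46. A p that misses the threshold does not show that these adjoining pieces are alike. Their labels were not checked against each other, since both share the hindgut markers.

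No homeobox probe set was called between microbial states with all libraries. Averaged over the 4 regions, germ-free minus conventional was called for 0 of 62 by limma, against 1.68% of all probe sets, and 8 of 62 had an unadjusted p under 0.05, against 1632 of 9033. Without the 3 libraries these counts were 0 and 6 of 60, against 1.49% called of all. Hlx had the lowest p, at 0.42 ± 0.14 with all libraries (adjusted p = 0.119) and 0.38 ± 0.14 without the 3 (adjusted p = 0.197). Next came the third Hoxa4 probe set, at 0.79 ± 0.27 (adjusted p = 0.135), Hoxa11, at 0.51 ± 0.18 (adjusted p = 0.151), and Hoxa2, at 0.37 ± 0.13 (adjusted p = 0.152). Median differences were 0.07 for homeobox probe sets and 0.03 for all.

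In the corpus 0 of 62 were called, against 0% of all probe sets, and 6 had an unadjusted p under 0.05, as did 817 of 9033. Hlx had the lowest p. It gave 76.3, 58.7 and 105 in germ-free corpus, against 32.9, 41.8 and 21.2 in conventional corpus, and the groups did not overlap. The difference was 1.34 ± 0.27 with all libraries (adjusted p = 0.0807) and 1.12 ± 0.29 without the library labelled germ-free corpus 3 and the other 2 (adjusted p = 0.237). Groups did not overlap for 6 of 62 homeobox probe sets in this region, against 13.6% of all. The next members by p were Cdx1, at 2.24 ± 0.73, Pitx1, at -1.27 ± 0.45, and Barx2, at -1.29 ± 0.48, and without the 3 libraries these became 0.75 ± 0.30, -0.40 ± 0.26 and -1.24 ± 0.55. Leaving out germ-free corpus 1 alone gave 4 calls, Hlx at 1.35 (adjusted p = 0.0393), Cdx1 at 3.37 (adjusted p = 0.00964), Pitx1 at -1.90 (adjusted p = 0.0239) and Barx2 at -1.89 (adjusted p = 0.0459), with the library labelled germ-free corpus 3 as 1 of the 2 left. Over all probe sets that setting called 146. Leaving out germ-free corpus 2 alone gave 1, Hlx at 1.54 (adjusted p = 0.0384), and 12 over all probe sets.

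Beside Hlx, the summed signal of the 6 epithelial markers was 4962, 11839 and 17695 in germ-free corpus, against 8496, 11386 and 6863 in conventional corpus. That of the 7 smooth muscle markers was 28845, 24663 and 16921 in germ-free corpus, against 23825, 20445 and 24153 in conventional corpus. Adipocyte markers, 3 of a list of 5 matched, summed to 1069, 776 and 864 in germ-free corpus, against 604, 663 and 543 in conventional corpus, and did not overlap. The sum of 8 skeletal muscle markers was 5409, 812 and 1079 in germ-free corpus, against 971, 1187 and 1315 in conventional corpus, highest in germ-free corpus 1. Their part in the Hlx values was not tested.

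In the jejunum 0 of 62 were called, against 0.465% of all, and 1 had an unadjusted p under 0.05, as did 1185 of 9033. Tlx2, a gene of enteric neurons, gave 121, 69 and 61.5 in germ-free jejunum, against 34.3, 31.3 and 57.9 in conventional jejunum. Its difference was 1.01 ± 0.43 (adjusted p = 0.313), and 1.29 ± 0.46 without the 3 libraries (adjusted p = 0.228). The next by p were the third Hoxa4 probe set, at 0.95 ± 0.54, the g_at probe set of Pbx3, at -0.55 ± 0.32, and Hoxd10, at -0.92 ± 0.56.

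In the descending colon 0 of 62 were called, against 0.0111% of all, and 4 had an unadjusted p under 0.05, as did 733 of 9033. Hoxb7 gave 197, 115 and 124 in germ-free colon, against 53.6, 79.3 and 71.8 in conventional colon, with no overlap. Its difference was 1.07 ± 0.27 (adjusted p = 0.335), and 1.07 ± 0.28 without the 3 libraries (adjusted p = 0.179). Nkx1-2 gave 19.2, 17.4 and 34.6 in germ-free colon, against 103, 56.5 and 35 in conventional colon, a difference of -1.24 ± 0.41 (adjusted p = 0.602). Irx3, at 0.87 ± 0.40, and Six2, a kidney progenitor gene, at 0.97 ± 0.45, followed.

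In the rectum 0 of 62 were called, against 0.0111% of all, and 2 had an unadjusted p under 0.05, as did 315 of 9033. Hoxa11 had the lowest p, at 1.18 ± 0.36 with all libraries (adjusted p = 0.982) and 0.87 ± 0.29 without the library labelled conventional rectum 1 and the other 2. In germ-free rectum it lay above all conventional rectum libraries. Six4, at 0.62 ± 0.27, Hoxa9, at 1.24 ± 0.74, and Hoxa2, at 0.44 ± 0.27, followed. The effect of state differed among regions for 0 of 62 by the interaction F test, against 0.0221% of all, and 4 of 62 had an unadjusted p under 0.05, as did 488 of 9033. Hlx was lowest, with an adjusted p of 0.89.

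The 45 homeobox probe sets that were not tested included 34 genes with no tested probe set. Of them 16 never passed the floor in any library. The brightest untested ones were Hoxd9, with a highest signal of 132, Hoxb9, with 122 in germ-free descending colon 1, and Hoxd13, with 120.4. Nkx6-2, a gene of neural and pancreatic progenitors, gave 5, 6.9 and 9.9 in germ-free rectum, against 4, 8.4 and 8.6 in conventional rectum, and 4.7, 32.6 and 55.6 in germ-free descending colon, against 9.8, 5.6 and 5 in conventional descending colon. It gave 8.6, 8.3 and 18.8 in germ-free jejunum, against 11, 13.2 and 13 in conventional jejunum, and 21.8, 44.7 and 40.8 in germ-free corpus, against 13.6, 30.4 and 23 in conventional corpus, and passed the floor in 7 libraries of the 24. Of the tested probe sets of Pax (4), Tlx (2) and Msx genes and of Six2, Six4 and Six5 (3), 0 were called between neighbouring regions over all libraries. Of all probe sets, 32.9% were called for jejunum minus corpus, 14.4% for descending colon minus jejunum and 0% for rectum minus descending colon. So few probe sets do not show that these genes are alike along the gut. The signals of these genes reached at most 172.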

How the data were processed

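Total RNA of 24 gut samples was measured on Affymetrix mouse arrays. The deposited intensity values are linear signals per probe set, and as deposited by the authors the middle of each array averages between 200.1 and 200.14. Which algorithm made them, and any detection call, is not given in the sources used here. Array medians lie between 68.6 and 103.5, and 17.6% to 28.5% of signals per array are at the floor. The number of arrays limits the precision.

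Signals under the 25th percentile (21.2) were set to it, log2 was taken, and probe sets above the 40th percentile (51.5) in at least 3 libraries were kept, without 66 control probe sets. This left 9033 probe sets (8856 without the 3 libraries). A model of 8 group means was estimated in R 4.3.3 using limma 3.58.1 (moderated test with an intensity trend), p-values were adjusted by Benjamini-Hochberg over all probe sets, and statmod 1.5.0 served the random block. P-values measure the spread between these samples, and the fit has no term for the mouse. Regions share mice, as stated above, so regional p-values treat libraries that can come from 1 mouse as independent. On simulated data with 100 probe sets changed by a log2 of 1 and 100 by 2, jejunum minus corpus recovered 71 and 94 with 8 false calls, and germ-free minus conventional 84 and 100 with 2. The simulated noise was normal and independent between libraries, with no floor, no shared mouse and no library that opposes its label. These counts therefore do not carry over to the real libraries.

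Symbols come from GEO's platform annotation, and all 107 members matched RefSeq by Entrez ID with the same symbol. Probe sets with several symbols were counted but not named as a gene. Per comparison the text names called members, up to 14 each way (Hoxb7, the 15th lower in jejunum, as a tested Hox gene), or the 4 of lowest p where fewer than 4 were called. It gives every library for tested Hox and Cdx genes and for Barx1, Nkx2-3, Nkx6-2, Pitx1, Hlx and Meis1, the highest signal for Pdx1, which never passed the floor, and other members by ranges. Members, gene lists and markers were chosen with earlier results of these data known. Alternatives changed the floor, filter, scaling, variance model, replicate block and libraries used. Promoter sequences are RefSeq's on GRCm38.p6.

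No label says that a replicate number marks a mouse, and equal numbers were not treated as pairs. Deviations of 36 pairs of same-numbered groups had correlations from -0.50 to 0.67, and 16 were above 0.1. Both ends of that range were pairs of conventional jejunum and conventional rectum, which each hold a library that opposes its label. The part of those libraries in the range was not tested. All 6 pairs of germ-free number 3 lay between 0.16 and 0.45, and in every region that array had the highest median signal and the lowest share at the floor.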

Additional observations from a re-analysis of the deposited data

How the results depend on the processing

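Counts of homeobox probe sets called moved by over 1.5 times under a few alternatives. Descending colon minus jejunum fell to 6 of the tested members with no filter and to 6 with array medians equalised, where 1085 and 1061 of all probe sets were called, against 1304. With the filter at the 60th percentile, which tests fewer members, the 4 regions differed in 16, jejunum minus corpus in 10 and descending colon minus corpus in 11, with 2766, 2540 and 1538 of all probe sets called. A fixed replicate block gave 1 call for germ-free minus conventional over regions, Hoxa2 at 0.37 (adjusted p = 0.0356 by limma), among 204 of all probe sets against 152 without the block, and the random block gave 0. No label ties equal numbers to 1 mouse. Leaving out 1 library at a time gave 23 to 31 across regions and 17 to 21 for jejunum minus corpus. It gave 1 to 12 for descending colon minus jejunum and 16 to 29 for descending colon minus corpus. For germ-free minus conventional in corpus it gave 0 to 4. Calls over all probe sets moved too: 579 where descending colon minus jejunum fell to 1, against 1304, and 146 where the corpus gave 4, against 0. These ranges therefore show nothing particular to homeobox members. For the causes of these moves, beyond the fewer members tested, the cause was not tested. Of the members named as called, 16 of 19 for jejunum minus corpus, 14 of 22 for descending colon minus corpus and 0 of 10 for descending colon minus jejunum kept their call under every alternative run, and none of them reversed. Lhx1, Lhx6 and Hoxb7 were the ones lost for jejunum minus corpus; Hoxb7 lost its call without the 3 libraries (-0.54, adjusted p = 0.0575), under both rescalings and without 1 of several corpus or jejunum libraries. Leaving out also the mixed library, germ-free rectum 1, gave 30 across regions. It gave 21 for jejunum minus corpus, 15 for descending colon minus jejunum, 31 for descending colon minus corpus and 0 for every germ-free comparison. Counts over all probe sets are not given for this setting, so these counts show nothing particular to homeobox members. Signals near the floor limit Hoxa10, Hoxa11 and Barx1 outside the regions where they are high.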
